A study of Mus musculus with 14 samples.

Results

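The genes described here drive or restrain the cell cycle and copy the DNA. They were chosen by name, as the genes of the deposited count table whose symbol stood on a list of 50 cell cycle and DNA replication genes, and all 50 were found among the 25212 genes of the table. By role they comprise 6 genes of G1 and the G1/S transition, 10 genes of origin licensing and firing, 7 genes of DNA synthesis and nucleotide supply, and 27 genes of mitosis. The mitotic genes fall into 8 cyclins and kinases of mitotic entry, 11 genes of chromosomes, kinetochore and spindle, 2 genes of the anaphase promoting complex and 6 genes of cytokinesis.

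The livers came from male C57BL/6 mice that had become obese on a high-fat diet (diet-induced obesity, DIO) and stayed on that diet after surgery. The 5 DIO mice had no surgery, in 4 mice the gallbladder was joined to the ileum and the common bile duct ligated (GB-IL), and 5 mice had a Roux-en-Y gastric bypass (RYGB). A single RNA library was sequenced per liver, 8 weeks after the operation. The controls had no sham operation, so surgery itself and the diversion of bile or food cannot be told apart in these groups. The question addressed here is whether the transcripts of the cell cycle differed in the liver after either operation.

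Hepatocytes of an adult liver rest outside the cell cycle, and they re-enter it after loss of tissue or injury. A cell that leaves this rest first raises D-type cyclins, then the E2F factors turn on the genes that license replication origins and make DNA, and later the B-MYB and FOXM1 factors turn on the genes of mitosis. The inhibitor p21, the product of Cdkn1a, holds this sequence back. In whole liver RNA the dividing cells can be hepatocytes, bile duct cells or immune cells, and a change in the number of cells of a type and a change in RNA per cell cannot be told apart.

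The libraries were of similar depth, with total counts of 18440676 to 21473005 in DIO, 19231679 to 26131278 in GB-IL and 18223135 to 28656631 in RYGB. Values are counts per 1000000 scaled by the TMM method (CPM), and RPKM is used where genes are compared with each other, since it accounts for gene length. The 8 hepatocyte markers summed to between 93465 and 142234 CPM in every liver. The lowest sum was that of GB-IL 3, below the DIO range of 112037 to 142234 CPM. Single markers moved further, in either direction. In GB-IL 1 and GB-IL 2, Ttr was at 1607 and 2186 CPM (5696 to 9294 CPM in DIO). Fgb was at 20858 and 9930 CPM there (3184 to 4967 CPM in DIO). Livers of the GB-IL group differed from each other more than those of the other groups: over all genes tested, the median SD of log2(CPM + 0.5) was 0.507 in GB-IL against 0.263 in DIO and 0.270 in RYGB. GB-IL 4 stood furthest from its group, and results are given with and without it where that changes a call. In GB-IL 4, 15.6% of all genes were above and 14.4% below all DIO livers. These shares were 25.6% to 36.1% and 18.3% to 37.5% in GB-IL 1 to GB-IL 3. A fit without GB-IL 4 thus leaves out the GB-IL liver nearest to DIO by these shares.

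Cell cycle transcripts were scarce in these livers. The median level of the 50 genes was 0.540 RPKM, against 2.74 RPKM over all 14252 genes tested, and 32 of the 50 were below 1 RPKM. The most abundant were Cdkn1a at 10.7 RPKM, Pcna at 8.24 RPKM, Gmnn at 4.89 RPKM, Ccnd1 at 4.14 RPKM, Tk1 at 3.88 RPKM and Mcm7 at 3.68 RPKM. These are an inhibitor, a G1 cyclin and genes of the S phase, whereas the mitotic genes lay lower, down to 0.0476 RPKM for Cenpf, which encodes a kinetochore protein. For the filter on low counts 48 of the 50 genes passed, and Cdc6 and Bub1 did not.

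Mitotic transcripts were highest in the GB-IL livers numbered 3 and 4 and low in GB-IL 1 and GB-IL 2. Mki67, which encodes the proliferation marker Ki-67, had 4.03, 2.90, 6.61, 2.15 and 2.50 CPM in the 5 DIO livers, 2.68, 1.81, 12.002 and 9.30 CPM in the 4 GB-IL livers and 4.10, 1.28, 2.78, 2.94 and 3.32 CPM in the 5 RYGB livers. GB-IL 3 and GB-IL 4 thus lay above every other liver, while GB-IL 1 lay inside and GB-IL 2 below the DIO range. Top2a, the topoisomerase that untangles chromosomes, had 2.98, 2.76, 2.24, 1.58 and 1.35 CPM in DIO, 0.735, 0.621, 8.99 and 6.79 CPM in GB-IL and 3.17, 1.97, 1.76, 2.77 and 2.39 CPM in RYGB. Here the 2 low GB-IL livers lay below all other livers and the 2 high ones above all of them. Cdk1, the kinase that starts mitosis, had 1.99, 1.62, 2.09, 1.81 and 1.92 CPM in DIO, 1.05, 0.960, 3.31 and 3.06 CPM in GB-IL and 1.59, 0.740, 0.951, 1.16 and 1.11 CPM in RYGB. Every RYGB liver had less Cdk1 than every DIO liver, while 2 GB-IL livers lay below and 2 above all DIO livers.

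The same order of livers held across most of the mitotic genes. Of the 27, 23 were above all 5 DIO livers in GB-IL 3 and 23 in GB-IL 4, and none was below them in either. In GB-IL 1, 2 of the 27 were above and 18 below all DIO livers, and in GB-IL 2, 0 were above and 21 below. In the RYGB livers between 2 and 6 were above and between 2 and 12 below. Of all genes tested, 17.1% to 27.3% were above and 16.1% to 26.1% below all DIO livers in the RYGB livers. The share of all genes above was 25.6% in GB-IL 3 and 15.6% in GB-IL 4. The share below was 37.5% in GB-IL 1 and 35.9% in GB-IL 2. Summed over the 27 genes, the level was 28.7 to 45.5 CPM in DIO, 23.7, 15.6, 80.2 and 73.1 CPM in GB-IL and 25.3 to 41.0 CPM in RYGB. Of all 14 livers, GB-IL 3 held the highest value for 13 of the 27 genes and GB-IL 4 for 11, while GB-IL 1 held the lowest for 8 and GB-IL 2 for 13. Over all genes tested, GB-IL 3 was highest for 8.65% and GB-IL 4 for 4.49%. GB-IL 1 was lowest for 24.4% of all genes and GB-IL 2 for 16.9%, so the count of GB-IL 1 was near its share.

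**Figure D1:**
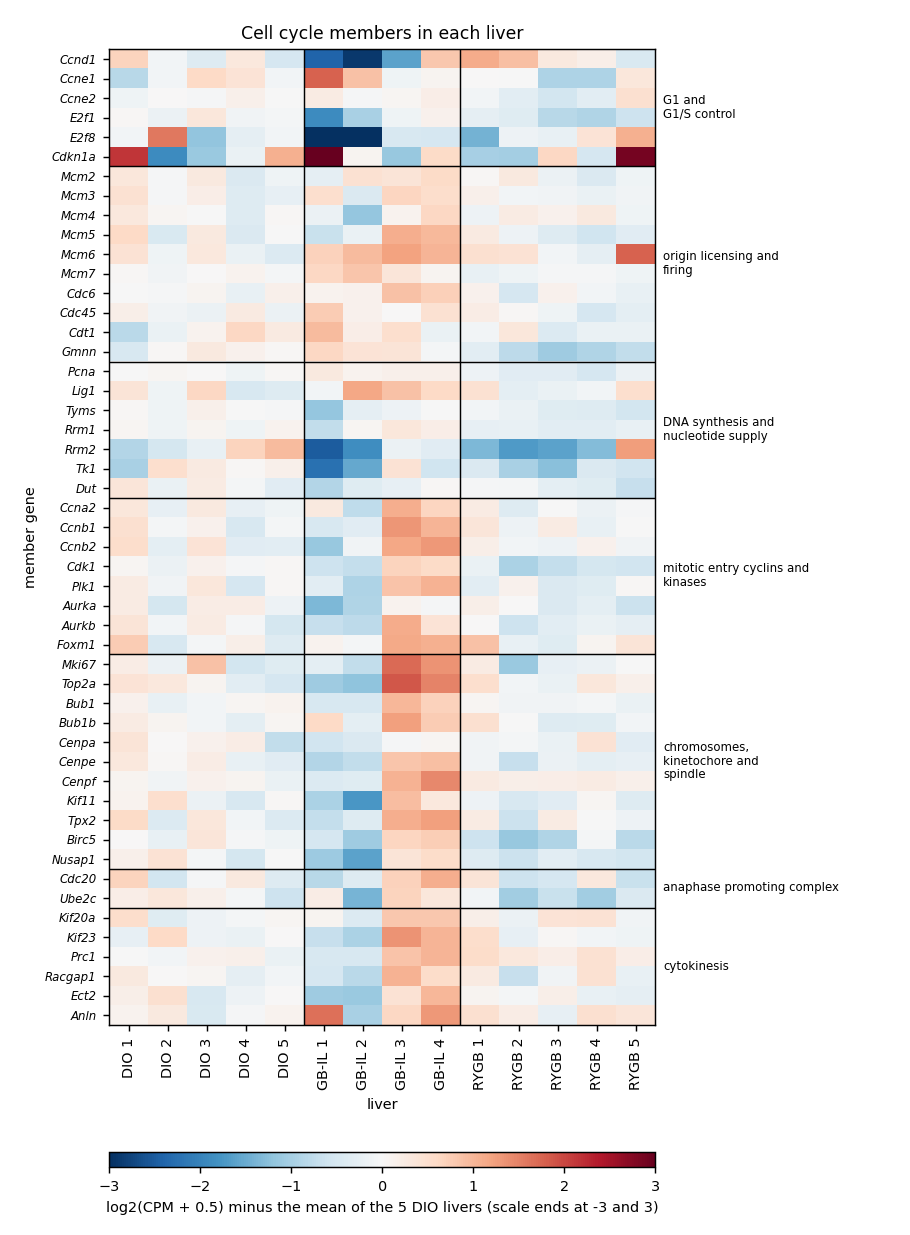
Each row is 1 of the 50 genes, grouped by role, and each column 1 liver; the colour gives log2(CPM + 0.5) minus the mean of the 5 DIO livers. In the mitotic rows GB-IL 3 and GB-IL 4 are mostly red and GB-IL 1 and GB-IL 2 mostly blue, while the RYGB livers are mostly pale.

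Over all 50 genes, GB-IL 3 had 33 above all DIO livers (66%) and GB-IL 4 had 34 (68%), where the shares over all genes tested were 25.6% and 15.6%. Below all DIO livers were 27 genes in GB-IL 1 (54%) and 30 in GB-IL 2 (60%), against 37.5% and 35.9% over all genes. Among RYGB livers the share below all DIO livers was 16%, 42%, 26%, 28% and 28%, against 16.1%, 17.7%, 17.6%, 19.1% and 26.1% over all genes. In RYGB 2, RYGB 3 and RYGB 4 there were thus relatively more cell cycle genes below the DIO range than among genes in general, most so in RYGB 2. In RYGB 1 and RYGB 5 the share was near that of all genes. The SD of log2(CPM + 0.5) had a median of 0.869 over these genes in GB-IL, against 0.343 in DIO and 0.286 in RYGB, and the gap to all genes was wider in GB-IL than in the other groups.

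**Figure D2:**
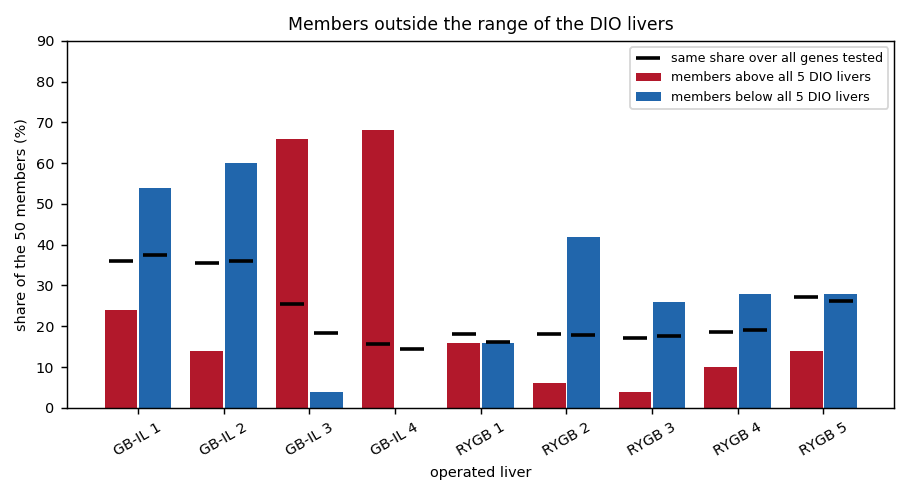
Bars give, for each operated liver, the share of the 50 genes above (red) or below (blue) all 5 DIO livers, and black marks give the same share over all genes tested. The red bars reach 66% and 68% in GB-IL 3 and GB-IL 4, and the blue bars 54% and 60% in GB-IL 1 and GB-IL 2.

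None of the 48 cell cycle genes tested passed the test between any 2 groups. Comparing GB-IL with DIO, edgeR's quasi-likelihood test at an FDR of 0.05 called 0 of the 48 genes, where 3.26% of all genes tested were called (3.15% higher and 0.112% lower). At an unadjusted p below 0.05 there were 6 genes, all higher (Mcm6, Mcm7, Lig1, Bub1b, Cenpf and Anln). That was 12.5% of the genes tested, against 23.1% of all genes in either direction and 16.7% higher. Without GB-IL 4 this direction did not hold: 2 genes were then higher (Mcm6 and Mcm7) and 5 lower (Ccnd1, Dut, E2f1, E2f8 and Tyms), where 40.1% of all genes passed in either direction, 22.8% higher and 17.3% lower. Leaving out another liver gave 2 to 12 higher and 0 to 3 lower, with 4 higher and 3 lower without GB-IL 3. DESeq2 called 1 gene higher (Mcm7) and voom with sample quality weights 0, where 6.97% and 3.58% of all genes were called higher. The fold change was above 0 for 36 of the 48 genes, against 53.1% of all genes, and its median on the log2 scale was 0.38, against 0.04 for all genes. Leaving out 1 liver at a time kept this median between 0.19 and 0.52. Each of these fits kept GB-IL 3 or GB-IL 4, which had 33 and 34 of the 50 genes above all DIO livers (25.6% and 15.6% over all genes). GB-IL 1 and GB-IL 2 had 12 and 7 above (36.1% and 35.4% over all genes) and 27 and 30 below (37.5% and 35.9%). The median thus joins livers that differed in direction. The livers did not overlap for 2 genes, Mcm6 and Pcna, 4.17% of those tested, both higher, where 4.17% of all genes did not overlap in either direction and 2.67% were higher.

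Comparing RYGB with DIO, edgeR called 0 of the 48 cell cycle genes and 0.0% of all genes. An unadjusted p below 0.05 was seen for 3 genes, all lower in RYGB (Gmnn, Pcna and Cdk1), where 8.71% of all genes passed in either direction and 3.36% lower. Leaving out 1 liver gave 2 to 8 lower and 0 to 1 higher, the 8 without GB-IL 1. DESeq2 called 1 gene lower (Gmnn) and voom 6 lower (Cdk1, E2f1, Gmnn, Pcna, Rrm2 and Tk1), with 0.216% and 5.77% of all genes called lower by each. The fold change was above 0 for 13 of the 48 genes, against 51.5% of all genes, and its median was -0.16, against 0.01 for all genes. The groups did not overlap for 6 genes, 12.5% of those tested against 3.53% of all genes. E2f1, Pcna, Rrm1 and Cdk1 were lower in every RYGB liver than in any DIO liver, and Cenpf and Prc1 higher, where 1.66% of all genes were lower and 1.87% higher.

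Comparing GB-IL with RYGB, edgeR again called 0 of the 48 genes and 0.0% of all genes. The 10 genes at an unadjusted p below 0.05 were all higher in GB-IL, where 22.1% of all genes passed in either direction and 15.3% higher. Without GB-IL 4, 6 were higher and 2 lower (Ccnd1 and E2f8), where 38.8% of all genes passed in either direction, 21.7% higher and 17.0% lower, and leaving out another liver gave 5 to 19 higher and 0 to 1 lower. DESeq2 called 3 higher (Gmnn, Mcm7 and Pcna) and voom 1 (Gmnn), where 4.12% and 0.779% of all genes were called higher. The fold change was above 0 for 40 of the 48 genes, against 52.5% of all genes, with a median of 0.64 against 0.03. The livers did not overlap for Mcm7, Gmnn and Pcna (6.25% of those tested, against 2.84% of all genes), each higher in GB-IL, as were 1.27% of all genes. Since each pair of comparisons shares a group of livers, the 3 comparisons are not independent of each other.

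**Figure D3:**
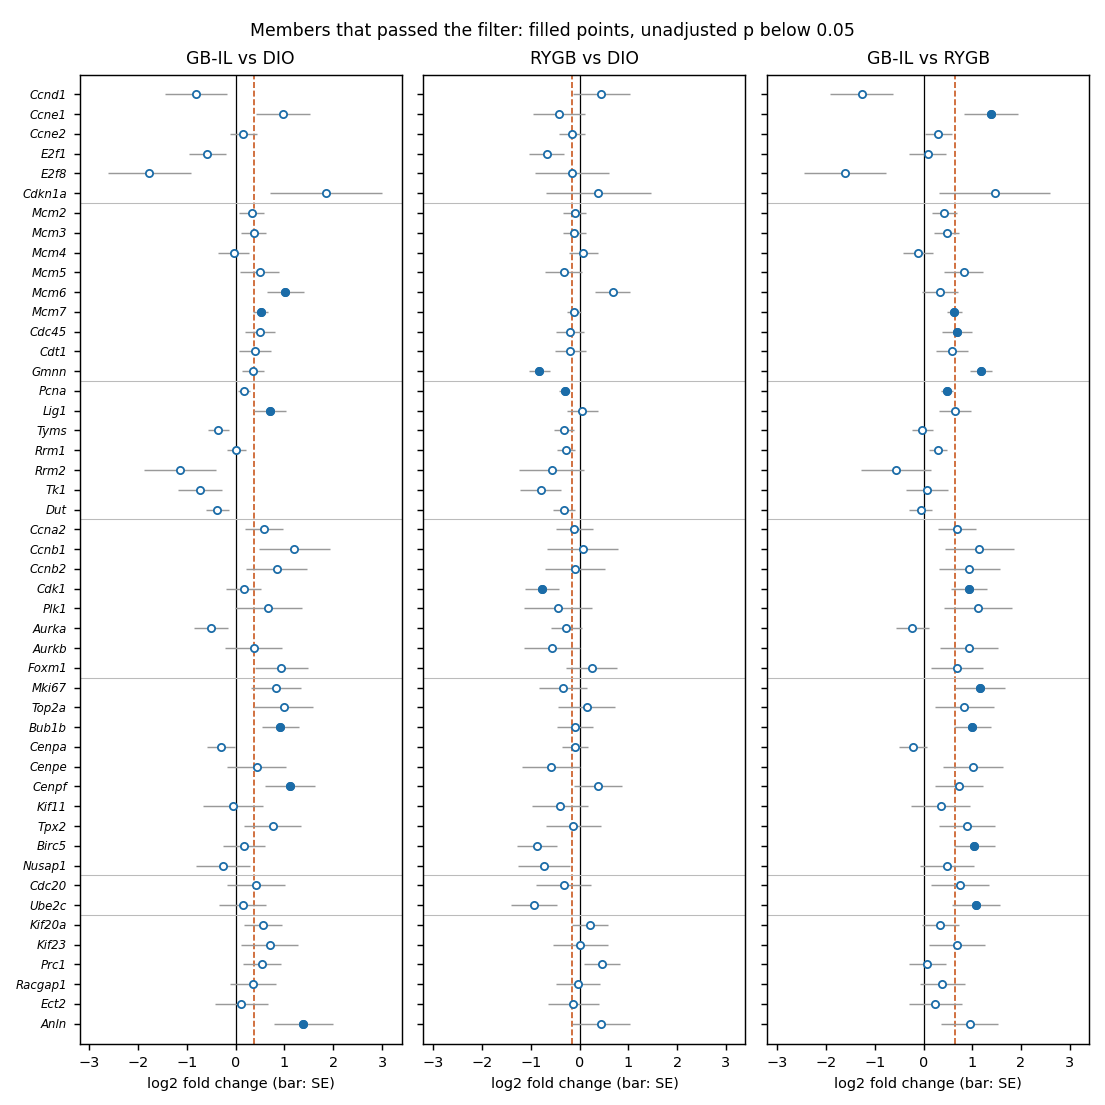
Points are log2 fold changes of the 48 genes tested in each comparison, with the SE as bars, in the role order of the heat map; filled points have an unadjusted p below 0.05 and the dashed line marks the median. The median lies at 0.38 for GB-IL against DIO, at -0.16 for RYGB against DIO and at 0.64 for GB-IL against RYGB, and no gene passed the FDR of 0.05.

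Promoters of cell cycle genes are known for a few short sequence elements, and the promoters of the genes described here were searched for them. The cell cycle homology region (CHR, searched as TTTGAA or TTCGAA) is bound by complexes that hold mitotic genes silent in resting cells and turn them on before mitosis, the CCAAT box (CCAAT) is bound by NF-Y, and E2F sites (TTCCCGC or TTCGCGC or TTGGCGC or TTGCCGC) by the E2F factors. Both strands were searched in windows of 300 bases around the annotated starts from RefSeq (GRCm38.p6), and 41 of the 50 genes had at least 1 of the 47 windows found. A CHR stood in 20 of the 24 windows of mitotic genes (83.3%), and in 4 of the 23 windows of G1 and S phase genes (17.4%), where 19.2% of all 32851 windows held one. The CCAAT box stood in 87.5% of the mitotic windows, 47.8% of the G1 and S phase windows and 37.4% of all windows. E2F letters showed the other order, with 20.8% of the mitotic windows, 52.2% of the G1 and S phase windows and 9.57% of all windows. These 5 windows are printed, 5′ to 3′ on the gene's strand, for genes whose levels are given further on. Mcm7 and E2f8 belong to the replication and G1/S genes, and Bub1b, Aurka and Anln to mitosis. The windows of Mcm7 and E2f8 are among the 4 of G1 and S phase genes with a CHR, and so are not typical of that class. Capitals mark the motif letters, on either strand. In Mcm7 an E2F site overlaps a second E2F site and a CCAAT box, and in E2f8 the E2F site overlaps the CCAAT box.
Mcm7, chr5:138171834-138172133, minus strand: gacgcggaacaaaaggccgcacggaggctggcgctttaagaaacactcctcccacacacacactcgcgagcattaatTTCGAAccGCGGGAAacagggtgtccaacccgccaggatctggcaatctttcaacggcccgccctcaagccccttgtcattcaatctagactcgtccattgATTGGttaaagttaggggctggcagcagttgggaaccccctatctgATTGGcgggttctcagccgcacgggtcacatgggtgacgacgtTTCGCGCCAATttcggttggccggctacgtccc
E2f8, chr7:48881547-48881846, minus strand: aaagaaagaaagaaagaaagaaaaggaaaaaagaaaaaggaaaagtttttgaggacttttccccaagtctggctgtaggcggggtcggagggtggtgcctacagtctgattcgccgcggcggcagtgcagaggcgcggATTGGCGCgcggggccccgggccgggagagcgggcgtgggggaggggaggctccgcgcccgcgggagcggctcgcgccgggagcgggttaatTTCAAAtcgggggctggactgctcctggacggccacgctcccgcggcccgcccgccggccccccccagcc
Bub1b, chr2:118597961-118598260, plus strand: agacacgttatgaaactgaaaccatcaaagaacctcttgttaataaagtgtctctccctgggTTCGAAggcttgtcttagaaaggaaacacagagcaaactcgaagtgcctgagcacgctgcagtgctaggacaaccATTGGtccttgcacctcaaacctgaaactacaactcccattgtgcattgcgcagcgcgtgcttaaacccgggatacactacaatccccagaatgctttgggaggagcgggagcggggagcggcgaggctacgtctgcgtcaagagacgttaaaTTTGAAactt
Aurka, chr2:172370521-172370820, minus strand: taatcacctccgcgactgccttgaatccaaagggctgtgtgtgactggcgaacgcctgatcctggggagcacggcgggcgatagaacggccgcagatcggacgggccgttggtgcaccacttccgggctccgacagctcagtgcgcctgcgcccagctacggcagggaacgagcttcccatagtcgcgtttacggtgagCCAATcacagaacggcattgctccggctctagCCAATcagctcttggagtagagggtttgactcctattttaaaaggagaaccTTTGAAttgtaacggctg
Anln, chr9:22389157-22389456, minus strand: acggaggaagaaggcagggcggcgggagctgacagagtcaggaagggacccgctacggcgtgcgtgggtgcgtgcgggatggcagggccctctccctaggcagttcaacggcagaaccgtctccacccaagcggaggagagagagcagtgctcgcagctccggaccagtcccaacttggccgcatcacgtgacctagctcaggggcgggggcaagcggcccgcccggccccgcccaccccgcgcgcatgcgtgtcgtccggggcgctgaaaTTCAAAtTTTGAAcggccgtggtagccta

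Counting from the start as 0, CHR letters lay at 32 to 37 in Aurka and at 21 to 26 and 28 to 33 in Anln, just inside the transcribed part, and in Bub1b both there, at 40 to 45, and upstream, at -188 to -183. Aurka also held CCAAT boxes at -51 and -19, and Anln none. In Mcm7 the CHR letters lay at -173 to -168, and in E2f8 at -20 to -15. Of the 3 windows of Lig1, a replication gene named below, 1 held none of these letters and the others 2 and 1 E2F sites. A match of letters is a description of the window and does not show that a factor was bound in these livers.

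Genes of G1 control were the most variable. Ccnd1 (chr7:144929931-144939925, mm10), which encodes cyclin D1, had 29.8, 17.3, 13.99, 23.0 and 12.8 CPM in DIO, 3.10, 2.03, 5.77 and 32.7 CPM in GB-IL and 40.6, 35.0, 22.6, 20.8 and 13.4 CPM in RYGB. In GB-IL, 3 livers were below every DIO and RYGB liver, and GB-IL 4 was above every DIO liver. The log2 fold change was -0.82 ± 0.637 (SE, edgeR adjusted p = 0.423) against DIO and -1.27 ± 0.644 (edgeR adjusted p = 0.257) against RYGB. Without GB-IL 4, Ccnd1 fell in GB-IL, with a log2 fold change of -2.41 against DIO (edgeR adjusted p = 0.00281) and -2.86 against RYGB (edgeR adjusted p = 0.00289). In that fit 9.27% and 8.09% of all genes were called lower in these comparisons, and Ccnd1 was the one cell cycle gene of the 50 called lower in either. LTO1 overlaps Ccnd1 on the other strand, with 2851 counts over all livers against 5974 of Ccnd1, and reads may be shared.

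E2f8 (chr7:48866429-48881596, mm10) encodes an E2F factor that represses transcription and takes part in making hepatocytes polyploid. Its level was 6.91, 22.9, 2.95, 5.997 and 6.83 CPM in DIO, 0.210, 0.169, 5.09 and 5.02 CPM in GB-IL and 2.41, 6.51, 6.20, 9.76 and 15.8 CPM in RYGB. It was nearly absent from GB-IL 1 and GB-IL 2 and inside the DIO range in GB-IL 3 and GB-IL 4, with a log2 fold change against DIO of -1.77 ± 0.853 (SE, edgeR adjusted p = 0.226). An antisense gene that overlaps its exons, Gm2788, had 0.263, 0.282, 17.7 and 20.7 CPM in the same 4 livers, 13.5 to 25.6 CPM in DIO and 7.58 to 37.9 CPM in RYGB. The strand setting of the counting is not given, so reads of the 2 genes cannot be told apart.

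The inhibitor gene Cdkn1a (chr17:29090976-29100727, mm10) had 56.8, 3.00, 5.495, 10.8 and 26.9 CPM in DIO, 258, 13.3, 5.43 and 18.8 CPM in GB-IL and 6.01, 5.87, 19.5, 8.73 and 94.0 CPM in RYGB. All 3 groups overlapped, and GB-IL 1 and RYGB 5 stood far above the other livers of their groups. The log2 fold change against DIO was 1.84 ± 1.15 in GB-IL (SE, edgeR adjusted p = 0.330) and 0.38 ± 1.08 in RYGB (edgeR adjusted p = 0.940). The sign of both differences turned under voom, and without GB-IL 1 the first was -0.72. Ccne1, which encodes cyclin E1, was highest in GB-IL 1 at 5.41 CPM and GB-IL 2 at 2.71 CPM, where the other 12 livers had 0.414 to 2.14 CPM.

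**Figure D4:**
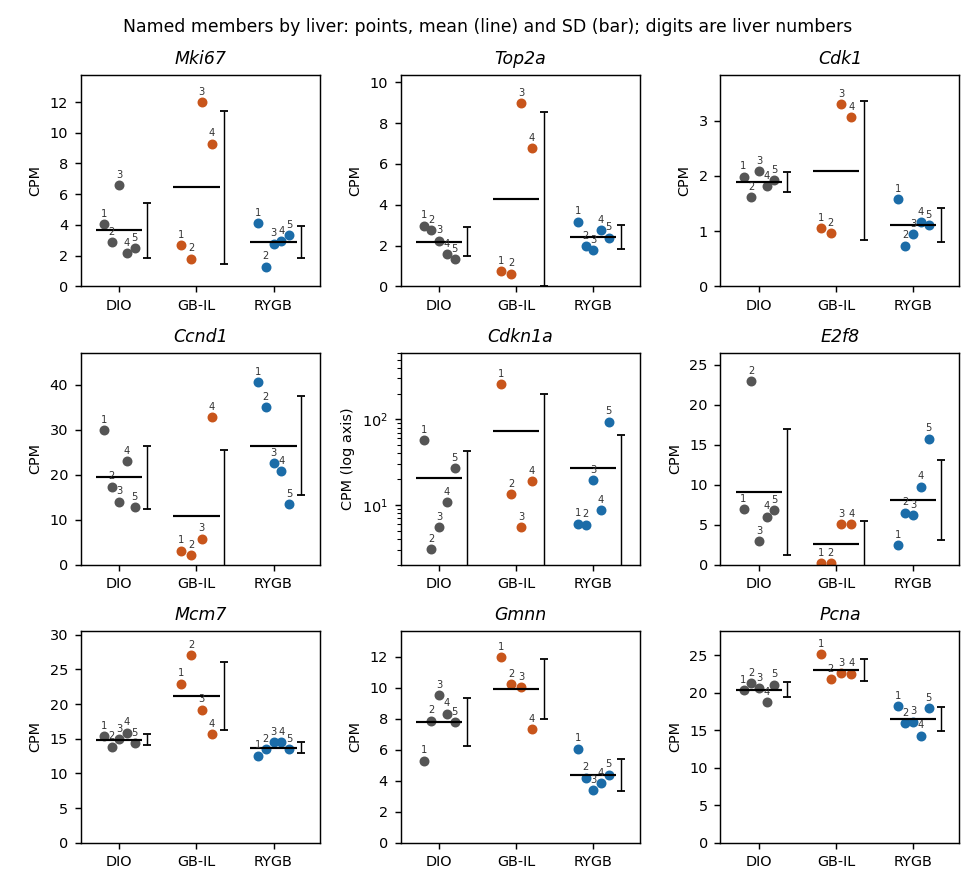
Points are the CPM of 9 genes in each liver, numbered within its group, with the group mean as a line and the SD as a bar; the Cdkn1a axis is logarithmic, and SD bars that would pass below an axis end there. Mki67, Top2a and Cdk1 divide the GB-IL livers into 2 high and 2 low values, and Pcna shows 3 groups that do not overlap.

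The summed level of the genes of replication origins behaved otherwise, being high in all 4 GB-IL livers. It was 44.8 to 53.3 CPM in DIO, 67.7, 64.8, 71.6 and 64.0 CPM in GB-IL and 39.6 to 52.7 CPM in RYGB, so that no GB-IL liver overlapped another group. In GB-IL 1 and GB-IL 2 the largest terms of the sum were Mcm7, Gmnn and Mcm6, each above every DIO liver. Not all of the genes were high there: Mcm5 in GB-IL 1 (1.47 CPM) and Mcm4 in GB-IL 2 (1.58 CPM) were the lowest of all livers. Of the 10 genes, 6, 4, 7 and 7 were above all DIO livers in GB-IL 1 to GB-IL 4, where the shares over all genes were 36.1%, 35.4%, 25.6% and 15.6%. In GB-IL 2 the 4 genes above were thus near that share, and 2 others lay below all DIO livers, as did 1 in GB-IL 1. The fold change against DIO was above 0 for 8 of the 9 tested, with a median of 0.39. No gene of the group passed the test.

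Mcm7 (chr5:138164583-138172422, mm10), a subunit of the helicase that opens DNA at origins, had 15.3, 13.9, 15.0, 15.9 and 14.3 CPM in DIO, 23.0, 27.1, 19.2 and 15.7 CPM in GB-IL and 12.6, 13.5, 14.5, 14.6 and 13.5 CPM in RYGB. In GB-IL, 3 livers were above all other livers, and GB-IL 4 was within the DIO range. The log2 fold change was 0.51 ± 0.154 against DIO (SE, edgeR adjusted p = 0.0795), the smallest p-value of the set in that comparison, and 0.63 ± 0.154 against RYGB (edgeR adjusted p = 0.0839). Mcm7 passed with DESeq2 against DIO (adjusted p = 0.0427) and, without GB-IL 4, with edgeR (adjusted p = 0.00815), where 15.4% of all genes were called higher. Its exons overlap those of Cops6 and Ap4m1 on the other strand, which had log2 fold changes of -0.06 and -0.51 in the same comparison. Over all livers Cops6 had 26330 counts and Ap4m1 1987, against 4897 of Mcm7, and reads may be shared.

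Mcm6, which encodes another subunit of that helicase, had 6.54, 4.28, 6.004, 4.02 and 3.41 CPM in DIO, 7.98, 9.54, 11.6 and 10.1 CPM in GB-IL and 6.73, 6.51, 4.40, 3.85 and 17.2 CPM in RYGB. GB-IL did not overlap DIO, and the highest value of all belonged to RYGB 5. The log2 fold change of GB-IL against DIO was 1.02 ± 0.374 (SE, edgeR adjusted p = 0.134). Of the alternatives run, it passed where RYGB 5 was left out.

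Gmnn (chr13:24751845-24761923, mm10) encodes geminin, which binds CDT1 and blocks a second round of licensing. Its level was 5.29, 7.87, 9.52, 8.32 and 7.79 CPM in DIO, 11.98, 10.2, 10.1 and 7.34 CPM in GB-IL and 6.07, 4.19, 3.38, 3.85 and 4.40 CPM in RYGB. In RYGB, 4 of the 5 livers were below every DIO liver, and RYGB and GB-IL did not overlap. The log2 fold change was -0.83 ± 0.211 for RYGB against DIO (SE, edgeR adjusted p = 0.331) and 1.18 ± 0.221 for GB-IL against RYGB (edgeR adjusted p = 0.0552), in both comparisons the smallest p-value of the set. Without GB-IL 4 the latter passed (edgeR adjusted p = 0.00429), where 13.4% of all genes were called higher.

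Pcna (chr2:132249162-132253314, mm10) encodes the sliding clamp that holds DNA polymerase on its template, and it was the steadiest of the genes named here, with the highest liver at 1.76 times the lowest. It had 20.4, 21.4, 20.6, 18.7 and 21.1 CPM in DIO, 25.2, 21.9, 22.6 and 22.6 CPM in GB-IL and 18.3, 15.9, 16.2, 14.3 and 17.9 CPM in RYGB. No 2 of the 3 groups overlapped, which held for 3 of the 14252 genes tested (0.021%), and GB-IL was highest and RYGB lowest. The differences were small: the log2 fold change was 0.17 ± 0.123 for GB-IL (SE, edgeR adjusted p = 0.385) and -0.31 ± 0.117 for RYGB (edgeR adjusted p = 0.508), both against DIO, and 0.48 ± 0.123 between the operations (edgeR adjusted p = 0.0871). Without GB-IL 4 the last of these passed (log2 fold change 0.48, edgeR adjusted p = 0.0236), as it did with DESeq2 on all livers. Reads of the pseudogene Pcna-ps2, with 613 counts over all livers, may be split with it.

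The other genes of DNA synthesis did not follow the origins. The log2 fold changes of these 6 had a median of -0.37 in GB-IL and -0.32 in RYGB, both against DIO. Lig1, the ligase that joins Okazaki fragments, had 3.20, 8.30, 6.70 and 5.42 CPM in GB-IL, where DIO lay between 2.32 and 5.55 CPM (edgeR adjusted p = 0.214). Rrm2, a subunit of ribonucleotide reductase, had 5.23, 6.74, 8.498, 16.1 and 19.8 CPM in DIO, 1.37, 2.37, 8.78 and 7.82 CPM in GB-IL and 3.61, 2.71, 2.96, 3.76 and 24.7 CPM in RYGB. GB-IL 1, GB-IL 2 and 4 RYGB livers were below every DIO liver, and RYGB 5 was above all of them. Tk1, thymidine kinase, had 5.10, 8.58, 35.5 and 16.97 CPM in GB-IL against 13.03 to 37.1 CPM in DIO. Afmid overlaps Tk1 on the other strand, with 10769 counts over all livers against 6113 of Tk1, and reads may be shared. The same holds for Zswim9 and Lig1, with 1050 counts against 1317 of Lig1.

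Of the mitotic genes named by p-value or level, each had its highest GB-IL values in GB-IL 3 and GB-IL 4, with Anln as the exception. Bub1b, the BUBR1 kinase of the spindle checkpoint, had 1.68, 0.678, 2.88 and 1.96 CPM in GB-IL against 0.679 to 1.204 CPM in DIO and 0.599 to 1.53 CPM in RYGB, with a log2 fold change of 0.91 ± 0.382 against DIO (SE, edgeR adjusted p = 0.176). Of its 4 GB-IL values, 3 were above all 10 other livers. Anln, the anillin scaffold of the contractile ring, had 2.94, 0.0565, 1.19 and 2.21 CPM in GB-IL, where DIO lay between 0.305 and 0.837 CPM, with a log2 fold change of 1.38 ± 0.604 (SE, edgeR adjusted p = 0.191). Foxm1, the factor that turns on mitotic genes, had 0.683, 0.565, 1.91 and 1.81 CPM in GB-IL against 0.295 to 1.36 CPM in DIO (edgeR adjusted p = 0.298).

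Aurka, which encodes the Aurora A kinase of the centrosome, was the most abundant gene of mitotic entry by RPKM and stayed inside the DIO range in GB-IL 3 and GB-IL 4. It had 1.31, 1.98, 4.41 and 3.98 CPM in GB-IL, where DIO lay between 2.71 and 4.92 CPM. Birc5, which encodes survivin, had 1.42, 0.791, 3.73 and 4.06 CPM in GB-IL, 1.82 to 3.00 CPM in DIO and 0.740 to 2.11 CPM in RYGB. Cdc20, an activator of the anaphase promoting complex, had 0.315, 0.621, 1.87 and 2.62 CPM in GB-IL against 0.492 to 1.83 CPM in DIO, and Kif20a, a kinesin of cytokinesis, 0.998, 0.565, 1.95 and 1.96 CPM against 0.590 to 1.52 CPM. For these 4 genes GB-IL and DIO overlapped, and none passed the test. Elovl1 overlaps Cdc20 on the other strand, with 12726 counts over all livers against 325 of Cdc20. Cdc23 likewise overlaps Kif20a, with 2799 counts against 350. As the counting strand is not given, reads of Elovl1 may be among those of Cdc20, and reads of Cdc23 among those of Kif20a.

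The genes removed by the filter were compared by their summed counts. Cdc6, which loads the helicase, had 47 counts in the GB-IL livers and 21 in the DIO livers, a ratio of rates of 2.50 (exact 95% interval 1.46 to 4.40), and 20 in RYGB, a ratio of 0.774 (0.398 to 1.501). Bub1, a checkpoint kinase, had 38 counts in GB-IL and 19 in DIO, a ratio of 2.23 (1.26 to 4.10), and 18 in RYGB, a ratio of 0.770 (0.381 to 1.55). These intervals cover counting error only, and the GB-IL livers ranged from 0 to 21 counts of Bub1. Counts of 0 were found for Cdc6 in RYGB 2, for Plk1 in GB-IL 2 and for Bub1 in GB-IL 1 and GB-IL 2, where 3 counts correspond to 0.148 to 0.169 CPM.

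Markers of other cells moved across the same livers. The 9 macrophage markers summed to 414 to 704 CPM in DIO, 636, 1050.2, 2305 and 873 CPM in GB-IL and 425 to 1049.9 CPM in RYGB, and 3 of the 9 were called higher in GB-IL than in DIO. Neutrophil markers summed to 2.19 to 4.76 CPM in DIO, 104, 42.4, 379 and 1.92 CPM in GB-IL and 3.01 to 98.8 CPM in RYGB, with 3 of the 4 tested called higher in GB-IL and the defining marker Ly6g at 0 in 9 livers. Bile duct (cholangiocyte) markers summed to 45.1 to 77.7 CPM in DIO, 334, 273, 234 and 69.6 CPM in GB-IL and 76.1 to 91.2 CPM in RYGB, with 3 of the 6 tested called higher. T and NK cell markers summed to 6.16 to 9.89 CPM in DIO and 2.42, 5.53, 17.2 and 5.28 CPM in GB-IL, with Ncr1 at 0 in 6 livers, and B and plasma cell markers to 2.45 to 16.4 CPM and 9.72, 7.51, 22.8 and 5.13 CPM.

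Thus GB-IL 3 held the highest sums of macrophage, neutrophil, T cell and B cell markers together with high mitotic genes, whereas GB-IL 4 held mitotic genes at a similar level with neutrophil markers below the DIO range. The macrophage markers did not share a common order. Adgre1 (F4/80), singled out after its values were seen, was at 66.7 and 65.9 CPM in these 2 livers. It was at 7.20 to 35.9 CPM in the other 12. Cd5l and Timd4 also had their highest values in these 2 livers. Cd68 (38.1, 46.0, 40.4 and 17.3 CPM in GB-IL 1 to GB-IL 4), Lyz2 and Marco were lowest of the GB-IL livers in GB-IL 4. Csf1r, Clec4f and Cd163 had neither order. The bile duct markers had another order, lowest of the GB-IL livers in GB-IL 4. The part of these cells in the levels of the cell cycle genes was not tested.

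**Figure D5:**
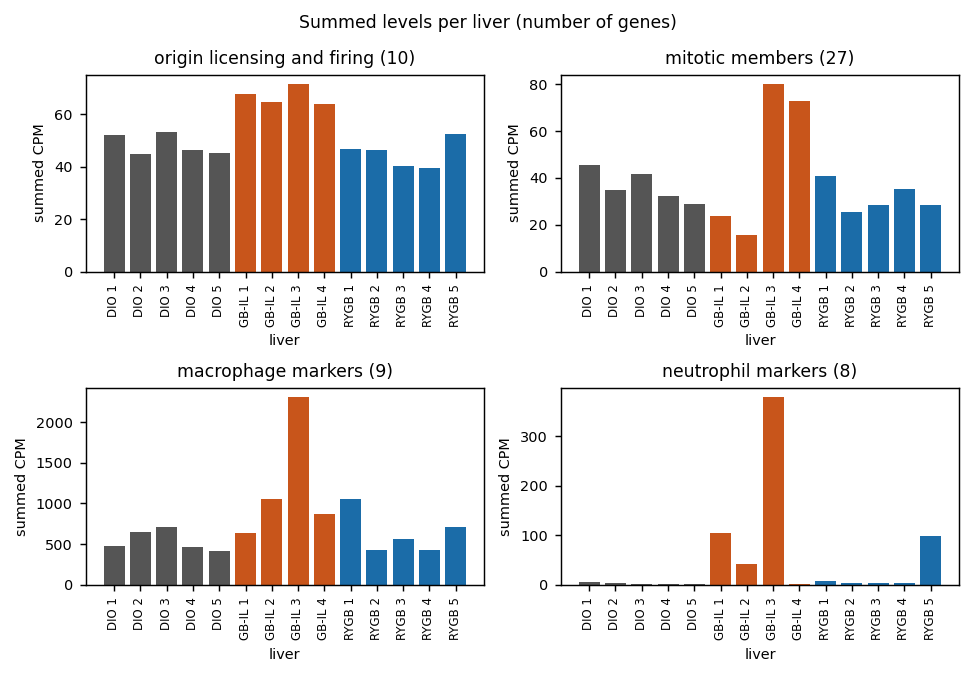
Bars give summed CPM per liver for the 10 origin genes, the 27 mitotic genes, the 9 macrophage markers and the 8 neutrophil markers. The sum of the origin genes is above the other groups in all 4 GB-IL livers (64.0 to 71.6 CPM), that of the mitotic genes in GB-IL 3 and GB-IL 4 alone (80.2 and 73.1 CPM), and the neutrophil markers reach 379 CPM in GB-IL 3 and 1.92 CPM in GB-IL 4.

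A wider list of 132 further cell cycle genes gave few calls too. Of the 109 tested, 1 was called higher in GB-IL than in DIO and 0 lower (12 higher and 2 lower at an unadjusted p below 0.05), and the median log2 fold change was 0.12. Over all genes 3.15% were called higher and 0.112% lower. The share at an unadjusted p below 0.05 was 12.8% in this list, against 23.1% of all genes, in either direction. Without GB-IL 4 the median turned to -0.055, with 14 higher and 13 lower at an unadjusted p below 0.05. That was 24.8% in either direction, against 40.1% of all genes, of which 22.8% were higher and 17.3% lower. The gene called was Hmgb2, which encodes a chromatin protein of dividing cells, with 20.6, 5.42, 17.05 and 5.72 CPM in GB-IL, 4.34 to 4.94 CPM in DIO and 3.70 to 6.27 CPM in RYGB (log2 fold change 1.41 ± 0.351, SE, edgeR adjusted p = 0.0427). Here GB-IL 1 and GB-IL 3 were the high livers, and GB-IL did not overlap DIO. No gene of this list was called when any DIO liver, GB-IL 1, 2 or 3, or RYGB 1, 2, 3 or 4 was left out, and 10 were called higher and 5 lower without GB-IL 4. In that last fit 15.4% of all genes were called higher and 9.27% lower. Incenp, of the chromosomal passenger complex, had 6.30, 3.45, 7.42 and 3.62 CPM in GB-IL against 1.81 to 2.95 CPM in DIO (edgeR adjusted p = 0.0562), and Mybl2, which encodes B-MYB, 3.62, 1.58, 1.31 and 0.590 CPM against 0.419 to 0.865 CPM (edgeR adjusted p = 0.0690).

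Between RYGB and DIO, edgeR called 0 of these 109 genes, with 1 higher and 3 lower at an unadjusted p below 0.05, and the median was -0.12. That was 3.67% in either direction, against 8.71% of all genes. The smallest p-values were those of Gins4 (log2 fold change -0.58) and Pole (-0.61), both of the replication fork, and Ccnd2 (0.79), which encodes cyclin D2. Between GB-IL and RYGB 0 were called, with 19 higher and 5 lower at an unadjusted p below 0.05, and the median was 0.30. That was 22.0% in either direction, near the 22.1% of all genes. Hmgb2 (1.46), Rpa2 (1.17), a subunit of the single-strand binding protein, and Cdkn2d (1.01), a CDK inhibitor, came first.

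Targets of p53, to which Cdkn1a belongs, were read from a list of 18 genes. Btg2, an antiproliferative gene, was the 1 of the 18 called higher in GB-IL than in DIO, with 288, 105, 34.9 and 22.4 CPM in GB-IL, 7.18 to 19.3 CPM in DIO and 10.7 to 88.3 CPM in RYGB (log2 fold change 3.22 ± 0.731, SE, edgeR adjusted p = 0.0333). All 4 GB-IL livers were above all DIO livers. Over all genes 3.15% were called higher in this comparison. No gene of this list was called when any DIO liver, GB-IL 1 or GB-IL 2 was left out, and 3 were called higher without GB-IL 3 (Btg2, Plk3 and Trp53inp1). Without GB-IL 4, 5 were called higher (Btg2, Phlda3, Plk3, Sesn2 and Trp53inp1) and 3 lower (Ccng1, Eda2r and Perp). In that fit 15.4% of all genes were called higher and 9.27% lower. Plk3, a stress kinase, had 383, 358, 37.3 and 32.2 CPM in GB-IL against 28.5 to 67.7 CPM in DIO (edgeR adjusted p = 0.0754), and Trp53inp1, a p53-induced gene, 281, 211, 52.1 and 115 CPM against 44.3 to 106 CPM (edgeR adjusted p = 0.0880). The high livers for these genes were GB-IL 1 and GB-IL 2, those with the lowest sums of mitotic genes. RYGB 2 had the next lowest sum (25.3 CPM), but Btg2, Plk3 and Trp53inp1 were at 14.3, 32.6 and 44.7 CPM in it. Not every target was high in GB-IL 1 and GB-IL 2: Ccng1 was at 25.2 and 25.6 CPM there (31.3 to 64.5 CPM in DIO). A link between the targets and the mitotic genes was not tested. Between RYGB and DIO and between GB-IL and RYGB, 0 of the 18 genes were called, and without GB-IL 4 the second of these comparisons gave 4 higher (Btg2, Phlda3, Plk3 and Sesn2) and 1 lower (Perp). There 13.4% of all genes were called higher and 8.09% lower.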

How the data were processed

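RNA of 14 livers (5 DIO, 4 GB-IL and 5 RYGB, grouped by the sample labels) was amplified, sequenced on the Illumina HiSeq, aligned to mm10 with TopHat 2 and counted per gene with HTSeq by the authors. The deposited values are whole counts per gene, without normalization, and 0 columns belonged to no sample. Tool versions beyond these, the gene models and the counting strand were not given in the sources used. Of the 2 library kits in the labels, neither is tied to a liver, so no kit term could be fitted. P-values weigh the difference of group means against the spread between these livers.

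The software was edgeR 4.0.16, DESeq2 1.42.0 and limma 3.58.1 (R 4.3.3), with scipy 1.17.1 and pandas 2.3.3 (Python 3.11.15). The filter filterByExpr left 14252 genes, whose counts were scaled by TMM and fitted by the quasi-likelihood test with 1 mean for each of the 3 groups, with Benjamini-Hochberg adjustment over all genes at an FDR of 0.05. The SE is the absolute log2 fold change divided by the root of the F statistic. RPKM used exon lengths of GENCODE M21 on mm10. Replicates of a group differed by more than sampling noise (chi-square per degree of freedom of at least 25.5), and all were kept. The fit was tested on simulated counts with known changes.

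The cell cycle genes, the wider list, the p53 targets and the marker lists were chosen with earlier results of these data known. Named were Mki67, Top2a, Cdk1, Ccnd1 and Cdkn1a, any gene past the FDR, the gene with the highest RPKM and the one with the smallest p-value for GB-IL against DIO in each role group, and the 2 with the smallest p-values in the other comparisons. The wider list and the p53 targets gave the 3 genes with the smallest p-values in each comparison. Mcm6, Ccne1, Rrm2, Tk1 and the genes listed by name beside counts were chosen after their values were seen. Alternatives were DESeq2, voom with quality weights, scaling by RLE or the upper quartile, a mean of 20 counts as the filter or none, a fit limited to the compared groups, a block by replicate number, and leaving out each liver.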

Additional observations from a re-analysis of the deposited data

Results flagged for a closer look

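Single livers stood apart from their group in 6 of the 72 sets of values examined by a Dixon test at the 95% level, where chance alone gives about 5% (1 in 20). Ccnd1 was at 32.7 CPM in GB-IL 4, where the next of its group had 5.77 CPM. Cdkn1a was at 258 CPM in GB-IL 1 (next 18.8 CPM) and at 94.0 CPM in RYGB 5 (next 19.5 CPM), which also set the summed level of the G1 genes in RYGB 5 at 129.8 CPM (next 55.2 CPM). E2f8 was at 22.9 CPM in DIO 2 (next 6.91 CPM). The genes of mitotic entry summed to 11.7 CPM in RYGB 1 (next 7.90 CPM).

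For Mcm7 and Pcna every GB-IL liver lay above the DIO mean and every RYGB liver below it. The DIO means were 14.9 CPM and 20.4 CPM. The log2 difference between the operations was 0.63 for Mcm7 (edgeR adjusted p = 0.0839) and 0.48 for Pcna (edgeR adjusted p = 0.0871), and neither passed the FDR of 0.05. The cause of these patterns was not tested.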

How the results depend on the processing

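The median log2 fold change of the tested genes kept its direction under every alternative run, and RLE or upper quartile scaling and both other filters changed no count of the 48 called. For GB-IL against DIO, DESeq2 called 1 gene higher. Leaving out a liver gave 0 to 1 higher (Mcm7 without GB-IL 4, Mcm6 without RYGB 5) and 0 to 1 lower (Ccnd1 without GB-IL 4). For RYGB against DIO, 1 was called lower by DESeq2 and 6 by voom. For GB-IL against RYGB, 3 were called higher by DESeq2 and 1 by voom, and leaving out a liver gave 0 to 3 higher and 0 to 1 lower, the most without GB-IL 4. In the wider list, whose alternatives were added after seeing the data, GB-IL against DIO gave 7 higher by DESeq2, 3 by voom, 0 with the compared groups only and 0 to 10 higher and 0 to 5 lower with a liver left out. RYGB against DIO gave 3 higher and 4 lower by voom. GB-IL against RYGB gave 7 higher and 2 lower by DESeq2, 1 higher by voom, and 0 to 13 higher and 0 to 6 lower with a liver left out. Over all genes, DESeq2 and voom called 6.97% and 3.58% higher for GB-IL against DIO. For GB-IL against RYGB they called 4.12% and 0.779% higher. Among the p53 targets, with alternatives also added after seeing the data, GB-IL against DIO gave 4 higher by DESeq2, 0 by voom and with the compared groups only, and 0 to 5 higher and 0 to 3 lower with a liver left out. GB-IL against RYGB gave 2 higher by DESeq2, and 0 to 4 higher and 0 to 1 lower with a liver left out. With the replicate number as a block, 0 of the 48 genes, 0 of the wider list and 0 of the p53 targets were called in every comparison, the medians were 0.32, -0.19 and 0.52, and Birc5 turned to -0.10 for GB-IL against DIO. The numbers do not pair the livers: deviations of same-numbered livers correlated between -0.428 and 0.404. Voom turned Cdkn1a to -0.62 (GB-IL against DIO), -0.49 (RYGB against DIO) and -0.13 (GB-IL against RYGB), E2f8 to 0.12 (RYGB against DIO) and Aurka to 0.092 (GB-IL against RYGB). With a liver left out, differences of GB-IL against DIO ranged from -0.72 to 2.68 for Cdkn1a, -0.14 to 0.38 for Cdk1, -0.17 to 0.44 for Birc5 and -0.12 to 0.73 for Cdc20. Those of RYGB against DIO ranged from -0.35 to 0.033 for Bub1b, -0.54 to 0.52 for E2f8, -0.071 to 0.26 for Lig1, -0.12 to 0.69 for Foxm1 and -1.02 to 1.22 for Cdkn1a, and Cdkn1a ranged from -1.11 to 2.89 for GB-IL against RYGB. The cause of these changes was not tested. Many mitotic genes had under 1 CPM, where few reads per liver limit the precision.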
